A study of Mus musculus with 12 samples.

Results

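The TNF superfamily genes that carry a Tnf, Tnfsf or Tnfrsf symbol were examined in RNA-seq data of mouse brain and skull after focal ischemic injury. Members were all symbols of the count table that read Tnf, Tnfsf plus a number or Tnfrsf plus a number, without Tnfsf11, Tnfrsf11a and Tnfrsf11b. This gave 26 of 22317 genes, made up of 7 ligands, 18 receptors and Tnfsf13os, an antisense transcript. The symbol alone decided which genes are members.

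TNF superfamily ligands are trimeric membrane proteins that can be shed as soluble cytokines, and each binds receptors with cysteine-rich repeats outside the cell. Receptors with a cytoplasmic death domain can recruit adaptors and caspases to start apoptosis. Most of the others bind TRAF adaptors and act mainly on NF-kB and MAP kinase signalling. In bone marrow the family is known for the survival and costimulation of lymphocytes and for inflammation, and in the nervous system for glial and neuronal responses to injury.

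The injury was photothrombosis (PT), in which Rose Bengal in the blood is lit by a laser and occludes small vessels. The groups hold 3 libraries each and come from wild-type male BALB/c mice. SB2 and SB4 are labelled brain cortex, taken on day 2 and day 4 after ischemic injury of the skull. BS2 and BS6 are labelled interparietal bone, taken on day 2 and day 6 after ischemic injury of the brain. By its label, every group comes from the tissue next to the one that was injured. Uninjured tissue and the injured tissues themselves were not analysed here, so no value below is a change from a control. The libraries of a group are described as biological replicates, and the labels do not say whether a library is a single animal or a pool.

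The total count per library was 14126082 to 18972654, and a floor of 3 counts, up to which a count of 0 can hide a signal, corresponds to 0.163 to 0.218 CPM. The libraries labelled SB2 went against their tissue label, as did those labelled BS2. The 6 fibrous matrix markers summed to 85106 to 101098 CPM in SB2 and 42204 to 176551 CPM in BS6, against 10.8 to 23.4 CPM in SB4 and 19.1 to 45.5 CPM in BS2. The 10 neuron markers summed to 108 to 143 CPM in SB2 and 115 to 201 CPM in BS6, against 12442 to 13390.3 CPM in SB4 and 12014 to 12478 CPM in BS2. SB2 and BS6 are therefore called bone-rich and SB4 and BS2 brain-rich, and a difference between days under 1 label cannot be told apart from the difference between bone-rich and brain-rich libraries. Of the bone-rich libraries, BS6 replicate 2 stood apart, with 6 of 8 neutrophil lineage markers in the table and summing to 23541 CPM there, against 1352 and 3255 CPM in BS6 replicates 1 and 3.

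Most members were highest in bone-rich libraries. By group mean, 14 of the 26 members were highest in BS6, 9 in SB2, 3 in SB4 and 0 in BS2. The exceptions were Tnfrsf21, Tnfrsf25 and Tnfrsf8, which were highest in SB4. The highest group was not counted over all genes, so these counts have no share to be read against. They include members of a few counts per library, such as Tnfrsf17. Between bone-rich groups, 3 members were called higher and 1 lower in BS6 than in SB2, against 1.11% and 0.741% of all genes, and each of these calls was lost in 5 of 6 fits that leave out a library, in which 0 to 17 of all genes were called in each direction. Between brain-rich groups 0 members were called, against 0.0614% of all genes higher and 0.0860% lower in BS2. Calls required an adjusted p-value under 0.05 together with a log2 fold change beyond 1 in either direction, from the quasi-likelihood test of edgeR, adjusted over all genes tested after Benjamini and Hochberg, the source of every adjusted p-value below. Levels are CPM, counts scaled by the TMM effective library size. Values given 3 in a row are replicates 1, 2 and 3, and a mean is given with its SD over 3 libraries.

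**Figure D1:**
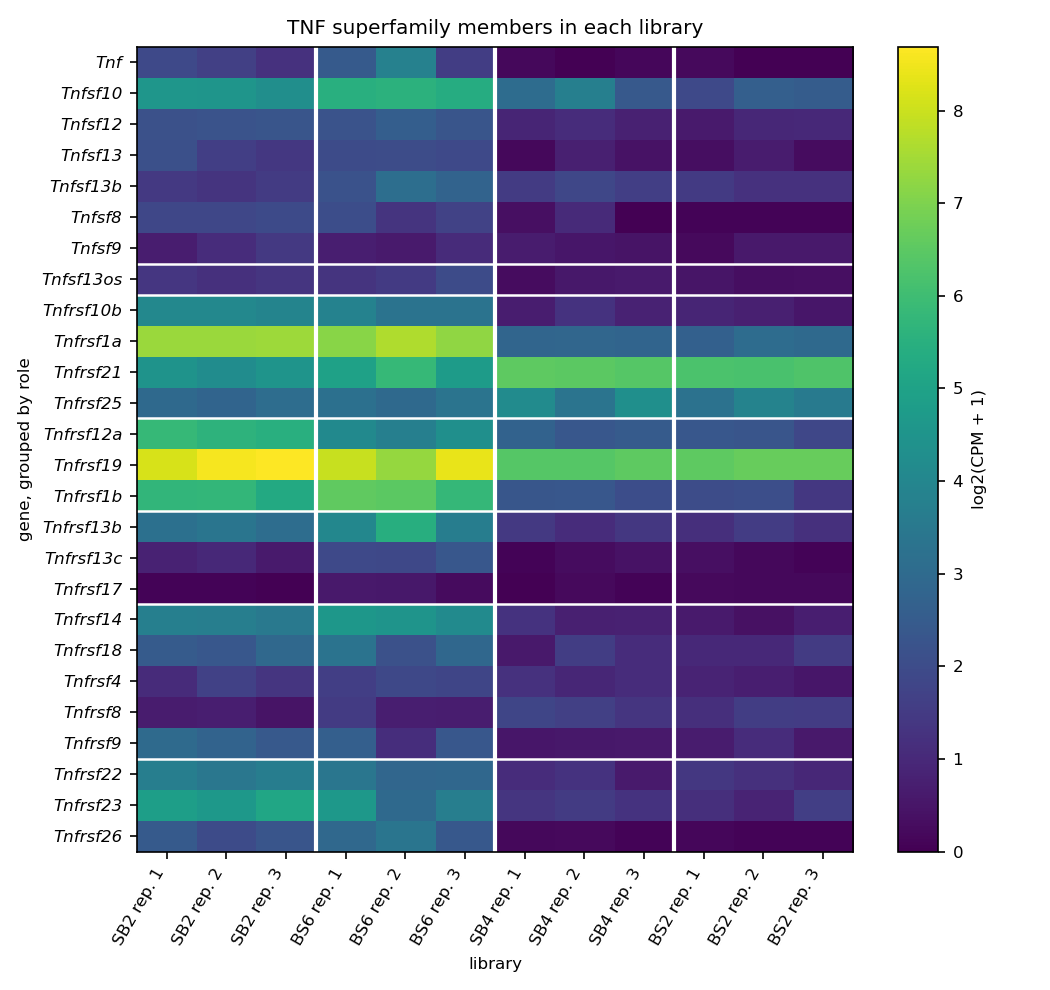
Level of each of the 26 members (rows, grouped by role) in each of the 12 libraries (columns), coloured by log2(CPM + 1). Most rows are bright in the SB2 and BS6 columns and dark in the SB4 and BS2 columns, and Tnfrsf21 shows the reverse.

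Between SB4 and SB2, 24 of the 26 members passed the filter on low counts. Of these, 3 were called higher in SB4 (Tnfrsf21, Tnfrsf25 and Tnfrsf8), against 27.8% of all genes tested. A further 19 were called lower in SB4, against 28.6% of all genes tested. Tnfrsf4 and Tnfsf13b did not pass the test, with log2 fold changes of -0.47 and 0.39. The median log2 fold change was -2.48 over the members tested and -0.01 over all genes. The libraries of SB4 and SB2 did not overlap for 24 of the 26 members, 20 lower and 4 higher in SB4. Of all 22317 genes, 37.0% were lower and 37.1% higher in SB4 by the same rule. The 4 members higher in SB4 include Tnfsf13b, whose libraries overlapped when scaled by total counts. Lower levels of a transcript in such tissue can reflect fewer cells of a type or less RNA per cell, which cannot be told apart here. The call of Tnfrsf25 was lost without SB4 replicate 3 (log2 fold change 0.95), and that of Tnfsf9 without SB2 replicate 3 (-0.90), SB4 replicate 2 (-1.24) or SB4 replicate 3 (-1.19), and in DESeq2 with all libraries (-1.30).

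Between BS6 and BS2 most members differed in the other direction. Of 24 members tested, 21 were called higher in BS6, against 29.0% of all genes, and 0 lower, against 26.5% of all genes. Tnfrsf21 was lower in BS6, with a log2 fold change of -0.95 (SE 0.286, adjusted p = 0.0211), which is under the fold threshold, and without BS6 replicate 2 it was -1.35 (adjusted p = 1.55e-06) and called. Tnfrsf25 (-0.40) and Tnfrsf8 (-0.67) did not pass the test, and without BS6 replicate 1 Tnfrsf8 was called lower at -1.33. The call of Tnfrsf9 was lost without BS2 replicate 1 (2.06) or BS2 replicate 3 (2.02), and with the replicate number as a block (2.09). The median log2 fold change was 2.90 over the members tested and 0.02 over all genes. Both medians, here and for SB4 against SB2, are the same with the members at the floor set to their bound.

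The contrast between both changes over time, BS6 against BS2 minus SB4 against SB2, was tested over all 12 libraries. It sets both bone-rich groups against both brain-rich groups, so a change over time cannot be told apart from tissue content in it. All 25 members tested passed at an adjusted p-value under 0.05, and so did 84.9% of all genes, so the count does not set the members apart. The contrast was positive for 22 members and negative for Tnfrsf21, Tnfrsf25 and Tnfrsf8, and its signs were not counted over all genes.

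The closer comparison is between BS6 and SB2, which are both bone-rich and, by their labels, differ in the tissue, the injured tissue and the day. Since SB2 and BS2 went against their tissue label, their injured tissue and day rest on that label alone, and an exchange of labels between groups was not tested. Of 25 members tested, 3 were called higher in BS6 (Tnfsf10, Tnfsf13b and Tnfrsf13c), against 1.11% of all genes, and 1 lower (Tnfrsf12a), against 0.741% of all genes. Tnfrsf14 passed by adjusted p-value alone, and 20 members did not pass. Over 8 alternative fits of all libraries, by edgeR or DESeq2, the adjusted p of Tnfrsf14 ran from 0.00132 to 0.101. With 1 library left out in edgeR, it ran from 0.0152 to 0.184. The median log2 fold change was 0.33 over the members and 0.02 over all genes. The libraries of both groups did not overlap for 12 of the 26 members, 8 higher and 4 lower in BS6, against 14.8% of all genes higher and 16.1% lower. All 4 calls were lost in 5 of the 6 fits that leave out 1 library, and kept only without BS6 replicate 2, while the log2 fold changes kept their sign. In those 5 fits 0 to 17 of all genes were called higher and 0 to 17 lower (0 in each fit without an SB2 library), and without BS6 replicate 2 these were 397 and 270 of 16608. DESeq2 called 752 of 16556 genes higher and 320 lower, with 4 and 1 members. The fit over all 12 libraries called 947 of 18068 higher and 326 lower, also with 4 and 1 members. With the replicate number as a block, 0 members and 0 of 16329 genes were called in either direction. Erythroid markers, 5 of 6 in the table and none at 0, summed to 1243, 4502 and 1409.9 CPM in SB2 and 8021, 12173 and 7426 CPM in BS6, with all 5 higher by mean in BS6. Their sums in both groups did not overlap, and their part in these results was not tested.

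**Figure D2:**
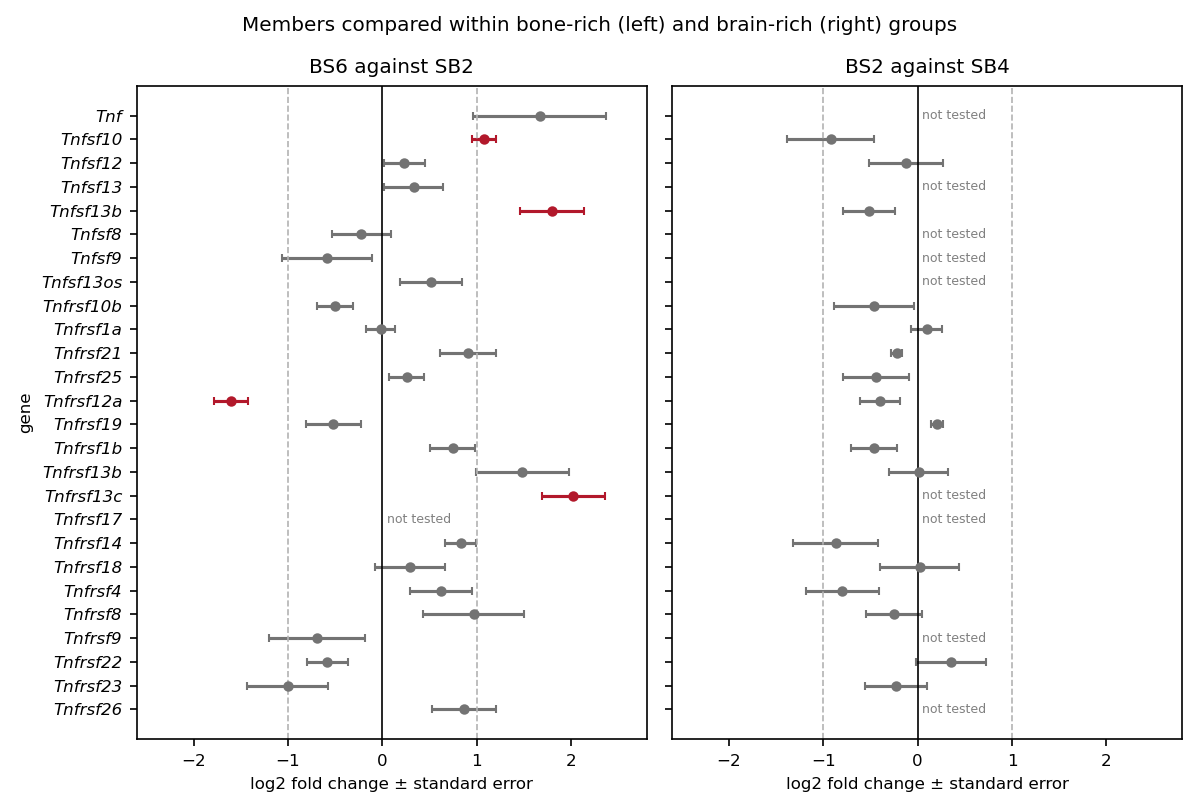
Log2 fold change ± standard error (x axis) of each member (y axis) between the bone-rich groups (left, BS6 against SB2) and the brain-rich groups (right, BS2 against SB4), with dashed lines at the fold threshold and red points for called members. Tnfsf10, Tnfsf13b, Tnfrsf13c and Tnfrsf12a are red on the left, and on the right no point is red and each lies within 1 of 0.

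Between the brain-rich groups, 17 members were tested and 0 were called in either direction, against 0.0614% of all genes called higher and 0.0860% called lower in BS2. Tnfrsf19 and Tnfrsf21 were the 2 members with an unadjusted p-value under 0.05 in edgeR, against 11.9% of all genes, and DESeq2 called 0 members. Without SB4 replicate 3, Tnfsf10 was called lower in BS2 at -1.23 (adjusted p = 0.0331), in a fit that called 68 of 16546 genes lower.

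Among the ligands, Tnfsf10 was the most abundant per length in every group. It encodes TRAIL, which binds death receptors, and lies at chr3:27317028-27342427 (GENCODE M21, mm10). Its level was 22.6, 22.0 and 18.4 CPM in SB2 and 43.3, 47.3 and 40.8 CPM in BS6, and 7.31, 12.4 and 4.34 CPM in SB4 and 2.77, 5.12 and 4.79 CPM in BS2. All 3 BS6 libraries lay above all others. The log2 fold change of BS6 against SB2 was 1.08 (SE 0.126, adjusted p = 0.0276), and without BS6 replicate 2 it was 1.01 (adjusted p = 0.00199), with an adjusted p up to 0.181 with another library left out. Tnfsf10 was lower in SB4 than in SB2, with a log2 fold change of -1.38 (SE 0.350, adjusted p = 0.00985) and higher in BS6 than in BS2, with a log2 fold change of 3.41 (SE 0.246, adjusted p = 3.95e-05).

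Tnfsf13b encodes BAFF, a survival factor of B cells, and lies at chr8:10006467-10039072. Its level was 1.71, 1.47 and 1.83 CPM in SB2, 3.59, 7.85 and 5.73 CPM in BS6, 1.84, 2.61 and 2.06 CPM in SB4 and 1.77, 1.34 and 1.38 CPM in BS2. Every BS6 library lay above every library of the other groups, and every SB4 library above those of SB2 and BS2. The gap between SB4 replicate 1 (1.844 CPM) and SB2 replicate 3 (1.832 CPM) was small. Scaled by total counts it was reversed, at 1.833 and 1.872 CPM. BS6 was higher than SB2, with a log2 fold change against SB2 of 1.79 (SE 0.339, adjusted p = 0.0406) and, without BS6 replicate 2, of 1.48 (adjusted p = 0.0120), with an adjusted p up to 0.186 with another library left out. It was the ligand that did not pass between SB4 and SB2 (0.39, adjusted p = 0.181), whereas it was higher in BS6 than in BS2, with a log2 fold change of 1.96 (SE 0.347, adjusted p = 0.00208). Macrophage and monocyte markers, 6 of 6 in the table and none at 0, summed to 1211, 1016 and 1012 CPM in SB2 and 2466, 2663 and 1461 CPM in BS6. The mean of 5 of the 6 markers was higher in BS6 than in SB2 and that of Cd68 was lower, with most of the sum in Lyz2 (a mean of 629 CPM in SB2 and 1651 CPM in BS6), and the part of these markers in the result was not tested.

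Tnf, the inflammatory cytokine that names the family, was at low counts. Its level was 2.79, 2.13 and 1.34 CPM in SB2 and 4.56, 13.0 and 1.97 CPM in BS6. In the brain-rich groups every library was at or under 3 counts, with counts of 0 to 2 in SB4 and 0 to 3 in BS2. SB2 was thus at least 11.5-fold higher than SB4, and BS6 at least 33.4-fold higher than BS2, against the mean of the 3-count floor per library. BS6 replicate 2 held the most Tnf, and without it the latter bound was 16.7-fold. BS6 and SB2 overlapped for Tnf, with a log2 fold change of 1.66 (adjusted p = 0.180), or 0.65 (adjusted p = 0.332) without BS6 replicate 2.

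The remaining ligands stayed under 5 CPM in every group mean. Tnfsf12, which encodes TWEAK, was at 3.42 to 3.85 CPM in SB2 and 3.72 to 5.07 CPM in BS6, against 0.724 to 1.14 CPM in SB4 and 0.531 to 1.02 CPM in BS2. Tnfsf13, which encodes APRIL, was at 1.65 to 3.30 CPM in SB2 and 2.74 to 3.02 CPM in BS6, against 0.142 to 0.707 CPM in SB4 and 0.218 to 0.576 CPM in BS2. Both were called lower in SB4 than in SB2 and higher in BS6 than in BS2, and neither passed between BS6 and SB2 (adjusted p = 0.517 and 0.514). Tnfsf8, the ligand of the CD30 receptor, was at 2.60 to 2.87 CPM in SB2, 1.45 to 3.13 CPM in BS6 and 0 to 1.03 CPM in SB4, and with 1 count in each BS2 library it was at least 11.7-fold higher in BS6 than in BS2. Tnfsf9, a costimulatory ligand of T cells, ranged from 0.177 CPM in BS2 to 1.71 CPM in SB2. Tnfsf13os, which was not grouped with ligands or receptors, was at 1.33 to 1.59 CPM in SB2, 1.5 to 2.99 CPM in BS6, 0.213 to 0.557 CPM in SB4 and 0.256 to 0.413 CPM in BS2. It lies antisense to Tnfsf13 and shares 221 exon bases with it, 13.5% of the exon bases of Tnfsf13, so that reads of both cannot be told apart there without strand. Tnfsf12 and Tnfsf13 lie 465 bases apart on the same strand.

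Over the ligands, 6 of 7 tested were lower in SB4 than in SB2 (median log2 fold change -1.99), against 28.6% of all genes, and DESeq2 called 5 of them, without Tnfsf9. All 6 tested between BS6 and BS2 were higher in BS6 (median 3.25), against 29.0% of all genes. Between BS6 and SB2, 2 of 7 were higher (median 0.33), against 1.11% of all genes, and between BS2 and SB4 0 of 3 were called, against 0.0614% of all genes higher and 0.0860% lower.

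Among the death-domain receptors, Tnfrsf1a, the main receptor of soluble TNF, marked the bone-rich libraries. It lies at chr6:125349362-125362484. Its level was 166, 167 and 168 CPM in SB2 and 139, 198 and 149.6 CPM in BS6, and 6.10, 6.31 and 6.02 CPM in SB4 and 5.31, 7.43 and 6.83 CPM in BS2. The bone-rich and brain-rich ranges were far apart: SB4 was lower than SB2, with a log2 fold change of -4.76 (SE 0.0734, adjusted p = 1.02e-12), and BS6 was higher than BS2, with a log2 fold change of 4.68 (SE 0.216, adjusted p = 8.66e-06). Between BS6 and SB2 the log2 fold change was -0.02 (SE 0.156, adjusted p = 0.947), and the BS6 libraries lay on both sides of the narrow SB2 range.

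Tnfrsf21, which encodes death receptor 6, went the other way. It lies at chr17:43016555-43089189 and was at 20.8, 17.9 and 21.7 CPM in SB2 and 30.5, 55.0 and 26.1 CPM in BS6, and 91.1, 88.5 and 83.3 CPM in SB4 and 73.3, 72.9 and 76.6 CPM in BS2. Every brain-rich library was above every bone-rich library. It was higher in SB4 than in SB2, with a log2 fold change of 2.12 (SE 0.0890, adjusted p = 1.07e-09). Between the brain-rich groups the libraries of BS2 were all below those of SB4, with a log2 fold change of -0.22 (adjusted p = 0.0991). BS6 replicate 2 held the highest level of the bone-rich libraries, and BS6 against SB2 gave 0.91 (adjusted p = 0.113), or 0.50 (adjusted p = 0.0298) without it.

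Tnfrsf25, which encodes death receptor 3, was at 6.89, 5.99 and 7.69 CPM in SB2 and 8.28, 6.83 and 9.23 CPM in BS6, and 17.3, 9.08 and 18.99 CPM in SB4 and 8.73, 13.7 and 10.6 CPM in BS2. It was higher in SB4 than in SB2, with a log2 fold change of 1.14 (SE 0.271, adjusted p = 0.00390), and SB4 was the least even group, with replicate 2 about level with BS2 replicate 1. BS6 and BS2 overlapped for it in part of their spread: the highest BS6 library was at 9.23 CPM and the lowest BS2 library at 8.73 CPM.

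Tnfrsf10b, the mouse TRAIL death receptor, was at 15.5, 15.5 and 14.1 CPM in SB2 and 13.5, 9.0 and 8.97 CPM in BS6, and 0.638, 1.41 and 0.780 CPM in SB4 and 0.885, 0.704 and 0.436 CPM in BS2. It was lower in SB4 than in SB2, with a log2 fold change of -3.95 (SE 0.238, adjusted p = 2.66e-08). Each BS6 library was below each SB2 library, but the difference of -0.50 did not pass (adjusted p = 0.150). Tnfrsf10b thus lay lower in BS6 by value while its ligand Tnfsf10 was higher there by test. Of the 4 death-domain receptors, 2 were higher and 2 lower in SB4 than in SB2, against 27.8% and 28.6% of all genes. Between BS6 and BS2, 2 were higher and 0 lower, against 29.0% and 26.5% of all genes. Between BS6 and SB2, and between BS2 and SB4, 0 were called, against 1.11% of all genes higher and 0.741% lower in the former and 0.0614% and 0.0860% in the latter.

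Of the receptors that bind TRAF adaptors, Tnfrsf12a was the member called lower in BS6 than in SB2. It encodes Fn14, the receptor of TWEAK, a gene known to be induced in injured tissue, and lies at chr17:23675445-23677468. Its level was 55.6, 47.6 and 43.2 CPM in SB2 and 16.3, 12.6 and 18.96 CPM in BS6, and 5.67, 4.08 and 4.62 CPM in SB4 and 4.13, 3.91 and 2.61 CPM in BS2. SB2 was above BS6, and both were above every brain-rich library. BS6 was lower than SB2, with a log2 fold change of -1.60 (SE 0.179, adjusted p = 0.0276), and without BS6 replicate 2 of -1.46 (adjusted p = 0.00118), with an adjusted p up to 0.181 with another library left out. Its ligand gene Tnfsf12 gave 0.23 in the same comparison (adjusted p = 0.517). Osteoblast and osteocyte markers (7 of 8 in the table, none at 0) summed to 4827, 3322 and 5294 CPM in SB2 and 1714, 1194 and 2830.0 CPM in BS6. The mean of 5 of the 7 markers was lower in BS6 than in SB2 and that of Phex and Sost was higher, with most of the SB2 sum in Ibsp (a mean of 3215 CPM in SB2 and 873 CPM in BS6). Skeletal muscle markers (5 of 6, none at 0) overlapped between the groups through replicate 3, at 1473, 1713 and 221 CPM in SB2 and 60.3, 46.4 and 374 CPM in BS6, and the part of either list in the result was not tested.

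**Figure D3:**
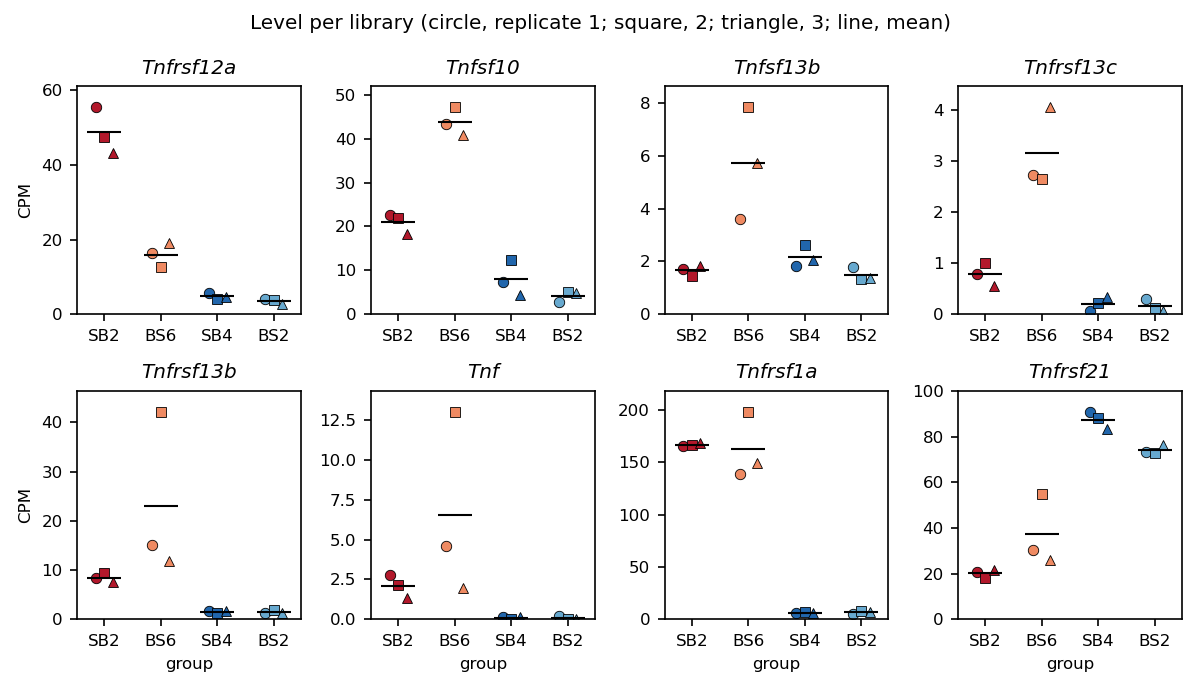
CPM (y axis, from 0) of 8 members in the 3 libraries of each group (x axis), with the symbol giving the replicate and a line the mean. Tnfrsf12a is highest in SB2, Tnfsf10, Tnfsf13b and Tnfrsf13c are highest in BS6, the square of BS6 replicate 2 stands above the other BS6 libraries for Tnfrsf13b and Tnf, and Tnfrsf21 is highest in the brain-rich groups.

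Tnfrsf19, which encodes TROY, was abundant in all groups. It lies at chr14:60963875-61046490 and was at 288, 378 and 411 CPM in SB2 and 248, 158 and 339 CPM in BS6, and 82.5, 82.3 and 90.6 CPM in SB4 and 92.1, 99.8 and 99.7 CPM in BS2. It was lower in SB4 than in SB2, with a log2 fold change of -2.07 (SE 0.126, adjusted p = 1.97e-07) and higher in BS6 than in BS2, with a log2 fold change of 1.39 (SE 0.263, adjusted p = 0.00300). All BS2 libraries lay above all SB4 libraries, with a log2 fold change of 0.21 (adjusted p = 0.136). BS6 replicate 2 was the lowest bone-rich library for Tnfrsf19, and its fibrous matrix markers were the lowest too, at 42204 CPM against 138276 and 176551 CPM in BS6 replicates 1 and 3.

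Tnfrsf1b, the receptor that favours membrane-bound TNF, was at 52.1, 52.6 and 38.2 CPM in SB2 and 93.0, 89.1 and 54.7 CPM in BS6, and 4.04, 4.13 and 3.12 CPM in SB4 and 3.07, 3.27 and 1.67 CPM in BS2. It was lower in SB4 than in SB2, with a log2 fold change of -3.66 (SE 0.163, adjusted p = 3.03e-09) and higher in BS6 than in BS2, with a log2 fold change of 4.91 (SE 0.347, adjusted p = 3.98e-05). Each BS6 library was above each SB2 library, but the log2 fold change of 0.75 did not pass (adjusted p = 0.108).

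The B lineage receptors Tnfrsf13b (TACI), Tnfrsf13c (the BAFF receptor) and Tnfrsf17 (BCMA) bind BAFF or APRIL. Tnfrsf13c lies at chr15:82221743-82224369 and was at 0.797, 0.999 and 0.549 CPM in SB2 and 2.74, 2.66 and 4.07 CPM in BS6. It was nearly undetected in the brain-rich groups, with 1 to 6 counts per library in SB4 and 1 to 5 in BS2. BS6 was higher than SB2, with a log2 fold change of 2.02 (SE 0.336, adjusted p = 0.0343), and without BS6 replicate 2 of 2.13 (adjusted p = 0.00745), with an adjusted p up to 0.182 with another library left out. These are 9 to 15 counts per library in SB2 and 42 to 64 in BS6. B cell markers, 7 of 10 in the table and none at 0 in a bone-rich group, summed to 57.0, 68.9 and 71.9 CPM in SB2 and 113, 77.1 and 144 CPM in BS6. The mean of 6 of the 7 markers was higher in BS6 than in SB2 and that of Ms4a1 was lower (a mean of 4.17 CPM in SB2 and 3.67 CPM in BS6), and Ebf1 had the highest mean of the 7 in both groups (a mean of 38.5 CPM in SB2 and 54.3 CPM in BS6). BS6 replicate 3 was highest for both Tnfrsf13c and these markers, and the markers' part in the result was not tested.

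Tnfrsf13b, at chr11:61126755-61149372, was at 8.26, 9.32 and 7.57 CPM in SB2 and 15.1, 42.2 and 11.9 CPM in BS6, and 1.70, 1.14 and 1.67 CPM in SB4 and 1.24, 1.92 and 1.31 CPM in BS2. It was lower in SB4 than in SB2, with a log2 fold change of -2.48 (SE 0.218, adjusted p = 7.66e-07) and higher in BS6 than in BS2, with a log2 fold change of 3.99 (SE 0.594, adjusted p = 0.00100), or 3.21 (adjusted p = 1.86e-06) without BS6 replicate 2. BS6 replicate 2 set its spread: this library was highest for Tnfrsf13b and the neutrophil lineage markers and lowest of BS6 for the B cell markers. Within BS6 it was also highest for the macrophage and monocyte, erythroid, neuron, oligodendrocyte and plasma cell markers. Other lists in which it was lowest of BS6 include the fibrous matrix, osteoblast and osteocyte, and osteoclast markers. The part of any of these markers in the result was not tested. BS6 against SB2 gave 1.48 (adjusted p = 0.118), which DESeq2 and a fit over all 12 libraries called, and without BS6 replicate 2 0.69 (adjusted p = 0.0271), under the fold threshold. Tnfrsf17, a receptor of plasma cells, was at 0.191 to 0.522 CPM in BS6, with 3 to 8 counts per library there and 0 to 3 elsewhere, and was not tested. Its BS6 mean was 2.04-fold the mean floor of BS2, or 1.82-fold without BS6 replicate 2. These values are no bounds, since BS6 replicate 3 was itself at the floor of 3 counts.

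Among the receptors of lymphoid costimulation, Tnfrsf14 (HVEM), which binds ligands and inhibitory receptors of lymphocytes, was at 12.4, 12.3 and 10.5 CPM in SB2 and 23.4, 21.4 and 17.0 CPM in BS6, and 1.42, 0.707 and 0.724 CPM in SB4 and 0.531, 0.320 and 0.654 CPM in BS2. BS6 was above SB2 in every library, with a log2 fold change of 0.83 (SE 0.164, adjusted p = 0.0427), a difference under the fold threshold. Over the alternative fits of all libraries, by edgeR or DESeq2, it was 0.77 to 0.86, with an adjusted p up to 0.101. With 1 library left out in edgeR it was 0.74 to 0.95, with an adjusted p up to 0.184. Tnfrsf14 was lower in SB4 than in SB2, with a log2 fold change of -3.65 (SE 0.255, adjusted p = 9.74e-08) and higher in BS6 than in BS2, with a log2 fold change of 5.39 (SE 0.285, adjusted p = 1.31e-05).

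Tnfrsf9, a costimulatory receptor of activated T cells, was at 7.06, 5.73 and 4.33 CPM in SB2 and 5.15, 1.21 and 4.14 CPM in BS6, and 0.426, 0.489 and 0.501 CPM in SB4 and 0.590, 1.15 and 0.508 CPM in BS2. BS6 replicate 2 was below the other bone-rich libraries, BS6 replicate 1 lay within the SB2 range, and the log2 fold change was -0.70 (adjusted p = 0.401). Tnfrsf18 (GITR), known from regulatory T cells, was at 4.67, 4.13 and 6.72 CPM in SB2 and 8.80, 3.50 and 6.49 CPM in BS6, and 0.497, 2.01 and 1.17 CPM in SB4 and 1.003, 1.02 and 1.82 CPM in BS2. It overlapped within the bone-rich groups and within the brain-rich groups. T cell markers (7 of 9 in the table) were low throughout, summing to 10.5, 11.99 and 9.89 CPM in SB2 and 25.2, 21.4 and 16.9 CPM in BS6, with 3.48, 4.62 and 3.84 CPM in SB4 and 5.37, 3.33 and 2.98 CPM in BS2. All 7 T cell markers were higher by mean in BS6 than in SB2. Their sums in SB2 and BS6 did not overlap, and their part in these results was not tested.

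Tnfrsf4 (OX40) stayed between 0.436 CPM in BS2 and 2.72 CPM in BS6. It was higher in BS6 than in BS2, with a log2 fold change of 1.95 (SE 0.312, adjusted p = 0.00133) and did not pass in the other comparisons. Tnfrsf8 (CD30) was at 1.504 to 2.55 CPM in SB4 and 1.24 to 1.99 CPM in BS2, against 0.366 to 0.666 CPM in SB2 and 0.636 to 1.83 CPM in BS6. It was higher in SB4 than in SB2, with a log2 fold change of 1.93 (SE 0.355, adjusted p = 3.72e-04). Of these 5 receptors, 1 was higher and 3 lower in SB4 than in SB2, against 27.8% and 28.6% of all genes, and 4 were higher in BS6 than in BS2, against 29.0% of all genes. Between BS6 and SB2, and between BS2 and SB4, 0 of them were called, against 1.11% of all genes higher and 0.741% lower in the former and 0.0614% and 0.0860% in the latter.

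The decoy or short-tailed receptors Tnfrsf22, Tnfrsf23 and Tnfrsf26 lie side by side on chromosome 7 of the mouse, and the first 2 bind TRAIL without a death domain. Tnfrsf23 was at 28.1, 23.7 and 34.5 CPM in SB2 and 23.7, 6.83 and 12.2 CPM in BS6, and 1.56, 1.85 and 1.39 CPM in SB4 and 1.24, 0.832 and 2.03 CPM in BS2. Tnfrsf22 was at 12.1, 9.99 and 11.8 CPM in SB2 and 9.72, 6.22 and 6.43 CPM in BS6, and 1.13, 1.41 and 0.557 CPM in SB4 and 1.65, 1.28 and 0.944 CPM in BS2. Each BS6 library was below each SB2 library for both genes, yet neither difference passed (-1.004, adjusted p = 0.183, and -0.59, adjusted p = 0.141). The transcripts of Tnfrsf22 share 17.3% of their 50-base stretches with Tnfrsf23, so the split of reads between these genes is uncertain.

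Tnfrsf26 was at 4.44, 3.00 and 3.85 CPM in SB2 and 6.72, 9.42 and 4.20 CPM in BS6, and its brain-rich libraries held 1 to 3 counts each. SB2 was at least 20.8-fold higher than SB4 and BS6 at least 34.7-fold higher than BS2. BS6 and SB2 overlapped, with a log2 fold change of 0.87 (adjusted p = 0.154). All 3 of these receptors were called lower in SB4 than in SB2, against 28.6% of all genes, and higher in BS6 than in BS2, against 29.0% of all genes.

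Per exon length, receptors far exceeded ligands in every group. The 18 receptors summed to 218 ± 9.02 in SB2, 198 ± 2.36 in BS6, 56.4 ± 2.46 in SB4 and 52.5 ± 2.29 in BS2 (CPM per kb of exon, mean ± SD). The 7 ligands summed to 10.9 ± 0.747 in SB2, 18.9 ± 4.57 in BS6, 3.21 ± 1.21 in SB4 and 2.15 ± 0.539 in BS2 on the same scale. Bone-rich libraries did not overlap brain-rich libraries for either sum.

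The make-up of the receptor sum differed as well. Tnfrsf1a took 29.5% ± 1.03 in SB2 and 31.6% ± 5.78 in BS6, against 4.21% ± 0.287 in SB4 and 4.78% ± 0.605 in BS2. Tnfrsf21 took 37.9% ± 2.46 in SB4 and 34.5% ± 1.67 in BS2, against 2.25% ± 0.244 in SB2 and 4.56% ± 1.85 in BS6. Tnfrsf19 was a major receptor everywhere, with 34.6% ± 4.82 in SB2, 26.5% ± 9.79 in BS6, 31.9% ± 1.74 in SB4 and 39.1% ± 0.551 in BS2. In CPM per kb, the order in SB2 was Tnfrsf19 (75.8 ± 13.5), Tnfrsf1a (64.4 ± 0.508) and Tnfrsf12a (25.3 ± 3.24), and in SB4 it was Tnfrsf21 (21.3 ± 0.968), Tnfrsf19 (17.97 ± 1.002) and Tnfrsf25 (6.64 ± 2.33). The SB2 libraries of Tnfrsf19 and Tnfrsf1a did not differ beyond their spread. In BS6, Tnfrsf1a and Tnfrsf19 lay within their spread of each other, at 62.7 ± 12.2 and 52.4 ± 19.1. Tnfsf10 led the ligands, with 3.99 ± 0.434 in SB2, 8.32 ± 0.623 in BS6, 1.53 ± 0.779 in SB4 and 0.803 ± 0.242 in BS2 CPM per kb. Exon length is the union over all transcripts of a gene in GENCODE M21, and the isoforms in use were not measured.

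**Figure D4:**
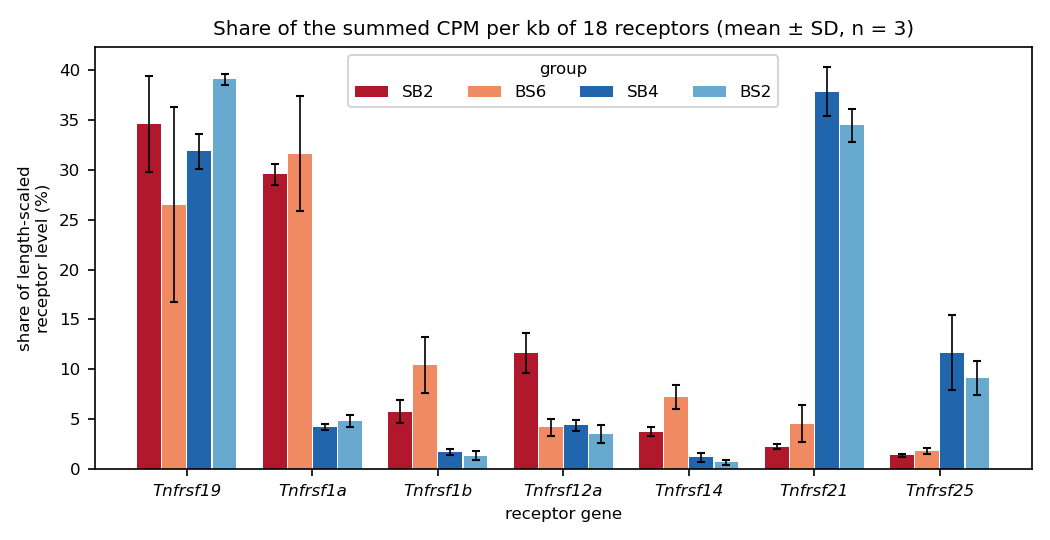
Share of the summed CPM per kb of the 18 receptors (y axis, percent) taken by 7 of them (x axis), as bars of the mean with SD over the 3 libraries of each group. Tnfrsf1a stands high in SB2 and BS6, Tnfrsf21 in SB4 and BS2, and Tnfrsf19 in all 4 groups.

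Promoter sequences were taken for the members in RefSeq's table for GRCm38.p6, which held 24 windows for 20 of the 26 members. The 250 bases before each transcription start were searched for 3 motifs: the NF-kB form GGGNNTTCC on both strands, the AP-1 site TGANTCA on both strands and the TATA box TATAAA on the strand of the gene. The windows shown are those of the 4 members called between the bone-rich groups, then those of Tnfrsf13b and Tnf, which hold the NF-kB form and the TATA box and were described above for BS6 replicate 2. Each runs 5′ to 3′ on the strand of its gene, with bases that are exonic in GENCODE M21 left out, and capitals mark a motif match.
Tnfrsf12a, chr17:23677469-23677699, minus strand: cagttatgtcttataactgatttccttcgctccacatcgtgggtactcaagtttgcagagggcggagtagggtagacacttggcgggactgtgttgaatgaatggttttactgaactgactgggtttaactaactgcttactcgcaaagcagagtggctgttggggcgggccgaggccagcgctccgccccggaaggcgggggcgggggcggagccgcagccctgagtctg
Tnfsf10, chr3:27316827-27317027, plus strand: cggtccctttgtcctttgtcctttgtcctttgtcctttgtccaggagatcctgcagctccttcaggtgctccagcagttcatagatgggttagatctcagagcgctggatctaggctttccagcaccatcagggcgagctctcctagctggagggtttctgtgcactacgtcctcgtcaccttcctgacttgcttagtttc
Tnfsf13b, chr8:10006217-10006466, plus strand: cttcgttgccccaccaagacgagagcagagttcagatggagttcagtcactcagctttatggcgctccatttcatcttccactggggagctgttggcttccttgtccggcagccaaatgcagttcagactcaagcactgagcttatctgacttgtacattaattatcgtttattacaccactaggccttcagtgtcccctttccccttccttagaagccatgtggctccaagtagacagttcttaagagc
Tnfrsf13c, chr15:82224381-82224630, minus strand: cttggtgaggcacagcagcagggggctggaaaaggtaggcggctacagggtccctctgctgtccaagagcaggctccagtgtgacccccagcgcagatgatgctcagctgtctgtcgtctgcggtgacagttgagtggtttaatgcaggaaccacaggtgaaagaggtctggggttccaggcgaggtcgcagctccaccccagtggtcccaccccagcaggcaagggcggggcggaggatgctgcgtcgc
Tnfrsf13b, chr11:61126505-61126754, plus strand: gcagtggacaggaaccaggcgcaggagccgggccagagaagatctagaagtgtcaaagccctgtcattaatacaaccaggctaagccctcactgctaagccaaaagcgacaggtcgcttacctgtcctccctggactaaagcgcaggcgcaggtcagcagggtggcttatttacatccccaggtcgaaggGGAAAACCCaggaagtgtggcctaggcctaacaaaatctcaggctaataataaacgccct
Tnf, chr17:35202008-35202257, minus strand: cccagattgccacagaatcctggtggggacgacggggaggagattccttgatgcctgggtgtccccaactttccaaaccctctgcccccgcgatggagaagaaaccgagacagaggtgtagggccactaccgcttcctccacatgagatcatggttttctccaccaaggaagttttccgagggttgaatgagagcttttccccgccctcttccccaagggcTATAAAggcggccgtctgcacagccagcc

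Of the 4 called members, 0 hold a motif match in the window shown. The NF-kB form was present in 2 of the 24 windows, against 4.98% of all 32851 windows. In Tnfrsf13b it begins at -60 from the start site, read on the other strand, and in 1 of 2 windows of Tnfrsf9 at -42. The AP-1 site was present in 4 windows (Tnfrsf8, Tnfrsf9, Tnfsf13 and a second window of Tnfsf13b), against 6.75% of all windows. The TATA box was present in 2 windows (Tnf and Tnfrsf17), against 7.59% of all windows, and in Tnf it begins at -29. The 250 bases of Tnfrsf12a have 15 CpG pairs, the most of the 24 windows. Tnfrsf9 and Tnfrsf13b, which share the NF-kB form, were not alike in BS6 replicate 2, where Tnfrsf9 was at 1.21 CPM, the lowest of BS6, and Tnfrsf13b at 42.2 CPM, the highest. A match is a description of letters, and a window without a match says only that these letters are not in it.

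The signalling genes around the family were described from short lists, to be read against 28.6% of all genes called lower in SB4 than in SB2 (median -0.01) and 29.0% called higher in BS6 than in BS2 (median 0.02). Of 8 family receptors with other names, such as Fas and Cd40, 8 were tested between SB4 and SB2 and 7 were lower in SB4 (median log2 fold change -3.08), and 6 of 7 tested were higher in BS6 than in BS2 (median 3.73). Of the TRAF and death-domain adaptors, which pass the signal on from the receptors, 9 of 13 tested were lower in SB4 than in SB2 (median -2.09), and 11 of 14 were higher in BS6 than in BS2 (median 2.27). Of the NF-kB subunits and inhibitors, 9 of 11 were lower in SB4 (median -2.32) and 10 of 11 higher in BS6 (median 2.69). Of the genes of ligand shedding, such as the TNF-cleaving protease Adam17, 5 of 6 were lower in SB4 (median -2.31) and 5 of 6 higher in BS6 (median 2.47).

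The ubiquitin and kinase relay lies between the receptors and NF-kB. Of its 12 genes tested, 1 was higher (Cyld) and 1 lower (Map3k14) in SB4 than in SB2 (median -0.36). Of all genes, 27.8% were called higher and 28.6% lower in that comparison. In BS6 against BS2, 4 were higher (Map3k14, Otulin, Sharpin and Tab2) and 1 lower (Cyld), with a median of 0.83. Of all genes, 29.0% were called higher and 26.5% lower there. Cyld, a deubiquitinase that limits this relay, was at 1.90 in SB4 against SB2 and -1.65 in BS6 against BS2, while Map3k14, the kinase of the noncanonical NF-kB pathway, was at -1.69 and 2.24. Of the family ligands with other names, Ltb, which encodes lymphotoxin beta, was lower in SB4 than in SB2 (-4.73) and higher in BS6 than in BS2 (6.51). Eda was lower in SB4 (-1.27), and 0 of the 3 tested were lower in BS6. These genes were singled out after their values were seen. In BS6 against SB2 and in BS2 against SB4, edgeR called 0 genes of these 6 lists. Of all genes it called 1.11% higher and 0.741% lower in the former, and 0.0614% and 0.0860% in the latter. At an unadjusted p-value under 0.05 in edgeR there were 9 of 54 and 9 of 46 genes tested, against 29.2% and 11.9% of all genes. DESeq2 called 2 and 0 genes of the lists. Of all genes it called 752 higher and 320 lower of 16556 in the former, and 17 and 29 of 16616 in the latter.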

How the data were processed

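Poly(A) RNA was sequenced in paired ends in 12 libraries. Per the study's methods, the authors trimmed reads with fastp, aligned them to mm10 with HISAT2 2.1.0, and deposited raw counts per gene for each library. The counting program, the annotation, the use of strand, and whether the deposited counts precede the batch adjustment the study used elsewhere are not given in the sources used here. Groups follow the labels. Counts were tested in R 4.3.3 with edgeR 4.0.16 and limma 3.58.1 (quasi-likelihood test, minimum count 10, TMM, robust, Benjamini-Hochberg), using the 6 libraries of each comparison, and all 12 for the contrast of changes. Each SE was derived from the log2 fold change and the root of the F statistic. DESeq2 1.42.0, other scalings and filters, the replicate block and the omission of each library were alternatives. Floors of 3 counts cover counting error only, whereas SDs, SEs and p-values include the spread between libraries.

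The members and gene lists were chosen with earlier results of these data known. Members were described in full from a mean of 5 CPM in a group or a call between like groups, which named 18 of 26. The edgeR script was tested on simulated counts. Exon lengths and positions are from GENCODE M21. Of the signalling lists, a gene was to be named only where called between like groups. The signalling genes given with values above were named outside this rule, after their values were seen. Cell type markers were used to check labels and to give levels beside results. Replicates differed by more than sampling noise in every group, so none were merged.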

Additional observations from a re-analysis of the deposited data

Results flagged for a closer look

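The change from BS2 to BS6 differed from the change from SB2 to SB4 for all 25 members tested, by edgeR's test of the contrast over all 12 libraries (adjusted p from 1.58e-11 for Tnfrsf1a to 0.00879 for Tnfsf9). As 84.9% of all genes passed the same test, and as the labels cross with the bone-rich and brain-rich content of the libraries, the contrast is given as a value only. On the log2 scale it was 9.45 for Tnfrsf1a, 9.04 for Tnfrsf14, 8.58 for Tnfrsf1b, 7.93 for Tnfrsf10b and 7.59 for Tnfrsf23. It was 6.48 for Tnfrsf13b, 6.00 for Tnfrsf13c, 6.00 for Tnfrsf22, 5.81 for Tnfrsf9, 5.60 for Tnfsf13 and 5.55 for Tnfrsf12a. Lower positive values were 4.81 for Tnfsf10, 4.49 for Tnfsf13os, 4.38 for Tnfrsf18, 4.38 for Tnfsf12, 3.47 for Tnfrsf19, 2.43 for Tnfrsf4, 2.29 for Tnfsf9 and 1.59 for Tnfsf13b. The contrast was negative for Tnfrsf21 (-3.07), Tnfrsf8 (-2.59) and Tnfrsf25 (-1.54), the members that were highest in SB4. The values for Tnf (11.14), Tnfrsf26 (11.12) and Tnfsf8 (7.59) depend on the prior count of the fit, since a group is at the floor of 3 counts, and are no bounds. Tnfrsf17 was not tested.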

How the results depend on the processing

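In SB4 against SB2 and BS6 against BS2, the counts of members called moved under the filter on low counts, which with at least 10 counts in every library left 10 of 14 members called lower in SB4, 10 of 13 called higher in BS6 and 11 of 11 with a differing change over time, because fewer members were tested (3396 of 13718, 3461 of 13661 and 11221 of 13290 of all genes). By adjusted p alone, 1 member (Tnfrsf21) was lower in BS6 than in BS2, against 6367 of all 17311 genes. With the replicate block 1 member was called lower, against 4596 of 17311 genes. Without each library in turn 0 to 1 were called lower, against 4496 to 4808 of all genes. In BS6 against SB2, leaving out each library in turn gave 0 to 3 members called higher and 0 to 1 called lower, and 0 to 397 and 0 to 270 of all genes. In BS2 against SB4 it gave 0 to 1 called lower, against 11 to 68 of all genes. The fit that called 1 member, without SB4 replicate 3, called 68 of 16546 genes lower. Fits with a group of 2 libraries borrow their spread across genes and groups in edgeR. Replicate numbers are shared by the groups, but same-numbered libraries did not deviate together (r from -0.0909 to 0.0626 over 18068 genes), and 2 to 3 of 6 libraries per comparison correlated best with their own number. With the number as a block, 20 in place of 21 members were called higher in BS6 against BS2, beside 4910 in place of 5020 of all 17311 genes. The call lost was that of Tnfrsf9 (2.09). In BS6 against SB2, 0 members and 0 of all 16329 genes were called in either direction with the block, and the cause was not tested. Scaling by total counts turned the split of all genes called in BS6 against SB2 from 182 higher and 121 lower to 125 and 163, with 3 and 1 members called as before. Upper-quartile factors moved the log2 values of SB4 against SB2 by a median of -0.13.

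Values that changed sign were not called. In BS6 against SB2, Tnfrsf1a was 0.012 in the fit over all 12 libraries. Without each library in turn, Tnfrsf18 ran from -0.030 to 0.57, Tnfrsf1a from -0.20 to 0.085 and Tnfsf8 from -0.51 to 0.016. In BS2 against SB4, the ranges were -0.21 to 0.13 for Tnfrsf13b, -0.30 to 0.56 for Tnfrsf18, -0.0036 to 0.23 for Tnfrsf1a, -0.60 to 0.032 for Tnfrsf23 and -0.28 to 0.13 for Tnfsf12. Members of a few counts per library, such as Tnfrsf17, Tnfsf9 and Tnfrsf13c in brain-rich libraries, are limited by depth.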
